A study of Mus musculus with 4 samples.

Results

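The genes described here are those whose name in the gene count table begins with Il followed by a digit, that is the interleukins, their receptor chains and the secreted proteins that bind them. The rule found 83 of the 41342 named genes. By the roles set by hand for this description, they comprise 38 cytokines, 38 receptor chains, 5 inhibitors, 1 enzyme and 1 antisense RNA, and they were followed in all 4 libraries. The libraries hold RNA of splenic B cells, prepared by removing cells that carry CD43, from mice of strain 129 with an altered 3' regulatory region (3'RR), the cluster of enhancers downstream of the immunoglobulin heavy chain genes. ΔleftPAL mice lack the left arm of the 3'RR palindrome, a fragment that runs from the enhancer hs3a through the intervening inverted repeats to the enhancer hs1,2. The ΔIRIS allele lacks the left-side copy of the inverted repeats named IRIS and carries hs3a in reverse orientation, with the enhancers still in place. Neither allele retains the palindrome. Each genotype gave 1 library of freshly isolated (resting) cells. It also gave 1 library of cells kept 48 h in culture with lipopolysaccharide (LPS) at 5 μg per ml. LPS is a bacterial cell wall component that activates B cells. No library was cultured without LPS, so an effect of LPS cannot be told apart from one of 48 h in culture. Differences with LPS and responses below mean cultured with LPS against freshly isolated. Per the labels each RNA came from a pool of 4 animals, while the methods describe the pooling differently, so the number of animals behind a library is not certain. Per the study the RNA-seq mice were males aged 8 to 12 weeks. The wt libraries were not analysed here, so both genotypes carry a 3'RR alteration and no value relative to wt is given.

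Interleukins are secreted proteins through which leukocytes signal to each other. Most are read by receptors built from a chain that binds one cytokine and a chain shared by a family, such as the common gamma chain, and these receptors signal through JAK kinases and STAT transcription factors. Receptors of the IL-1 and IL-18 family instead share adaptors with the Toll-like receptors that sense LPS. In B cells IL-4, IL-21, IL-5 and IL-10 are known for guiding growth, isotype choice and plasma cell formation, and activated B cells are themselves a source of IL-10 and IL-6.

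The total gene counts lay between 23621743 and 29778717 per library, so that 3 reads, the floor used here for a library without reads, correspond to a level of 0.102 to 0.123 CPM (counts scaled to a common library size). With 1 library per group, the 95% intervals given below cover counting error only, and reads amplified by PCR are not independent molecules. The B cell marker genes Ms4a1, Cd79a, Cd79b, Pax5 and Cd22 were detected in every library. They summed to 3160 CPM at rest and 1860 CPM after LPS in ΔleftPAL and to 2640 and 2020 CPM in ΔIRIS cells. Of the 5, 4 were called lower after LPS by edgeR, beside 27.9% of all tested genes. Markers of several other cell types were far lower after LPS. The 9 monocyte or macrophage markers in the table summed to 598 CPM in resting ΔleftPAL and 793 CPM in resting ΔIRIS cells, against 14.3 and 20.1 CPM after LPS, with the complement gene C1qa at 0 reads in both LPS libraries. Erythroid markers summed to 41300 and 28700 CPM at rest and to 58.2 and 124 CPM after LPS. T cell markers summed to 54.2 and 45.5 CPM at rest and to 20.1 and 18.2 CPM after LPS, when Cd3e, Cd3d and Cd3g had 0 reads. Lck made up 18.1 and 17.2 CPM of the LPS sums and was not called, while Cd4 had 273, 2, 496 and 1 reads. Neutrophil markers summed to 10.3 and 2.30 CPM at rest and to 0 after LPS, and mast cell and basophil markers never passed 0.206 CPM. The dendritic cell marker sum lay between 37.6 and 54.6 CPM but its members moved apart, as Flt3 was called higher after LPS, while Zbtb46, Xcr1 and Clec9a were called lower. The plot of marker sums shows these levels library by library. These shifts lie beside every difference with LPS given below.

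**Figure D1:**
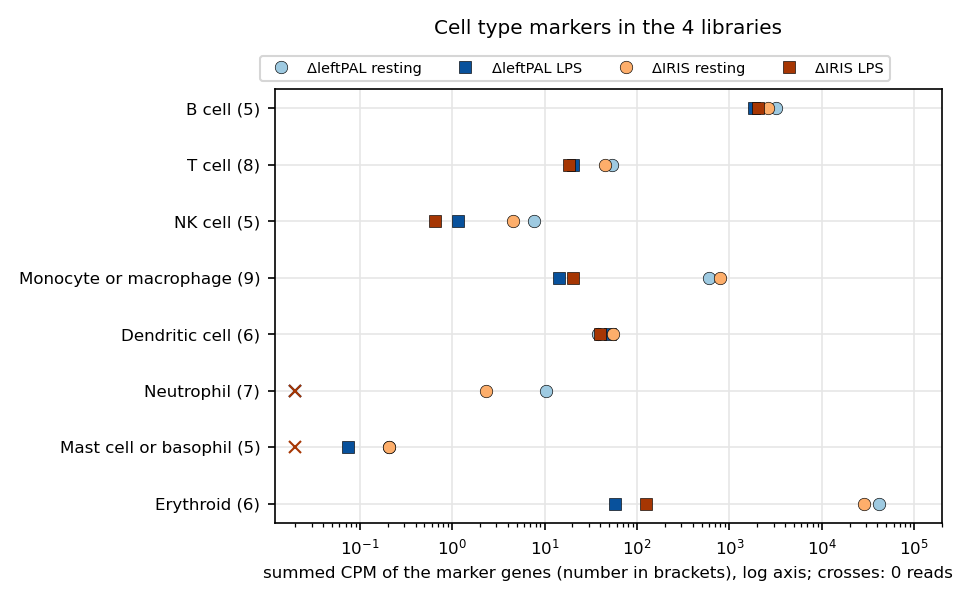
Summed CPM (x axis, log scale) of the marker genes of 8 cell types (y axis, number of genes in brackets) in the 4 libraries; circles are resting and squares LPS libraries, and crosses at the left edge stand for 0 reads. The B cell sums lie at 3160 and 2640 CPM at rest and at 1860 and 2020 CPM after LPS, whereas the monocyte or macrophage sums lie at 598 and 793 CPM at rest and at 14.3 and 20.1 CPM after LPS.

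Expression of the 83 genes was concentrated in receptor chains. Of the 38 cytokine genes, 24 had at most 3 reads in every library, among them Il4, Il5, Il13 and Il9, the effector cytokines of T helper 2 cells, Il17a, Il21, Il22, Il7 and Il23a. Of the 38 receptor chains only 7 were that low (Il1rapl1, Il1rapl2, Il11ra2, Il22ra1, Il17re, Il17rc and Il20ra). In all, 32 genes had at most 3 reads in each library, 19 of these had 0 reads throughout, and 51 reached 4 reads in some library. A mean of 50 reads over the libraries, the level needed for the test of LPS, was reached by 28 genes, of which 20 are receptor chains and 5 cytokines. A further 9 genes had a lower mean but at least 30 reads in some library, and these 37 genes are shown in the plot of levels. Each of the 9 reached 30 reads at rest or after LPS but not in both, so their differences with LPS are a description. The remaining 14 detected genes had few reads each, for example 15, 14, 23 and 17 for the T cell growth factor Il2 in resting and LPS ΔleftPAL and resting and LPS ΔIRIS cells, the order in which 4 values are given throughout. For such low genes the deposited tables can differ widely. Kallisto gave Il2 at most 2 estimated counts in any library, and it gave Il18rap, a chain of the IL-18 receptor with 27, 2, 11 and 8 reads, 307, 139, 232 and 133 estimated counts.

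**Figure D2:**
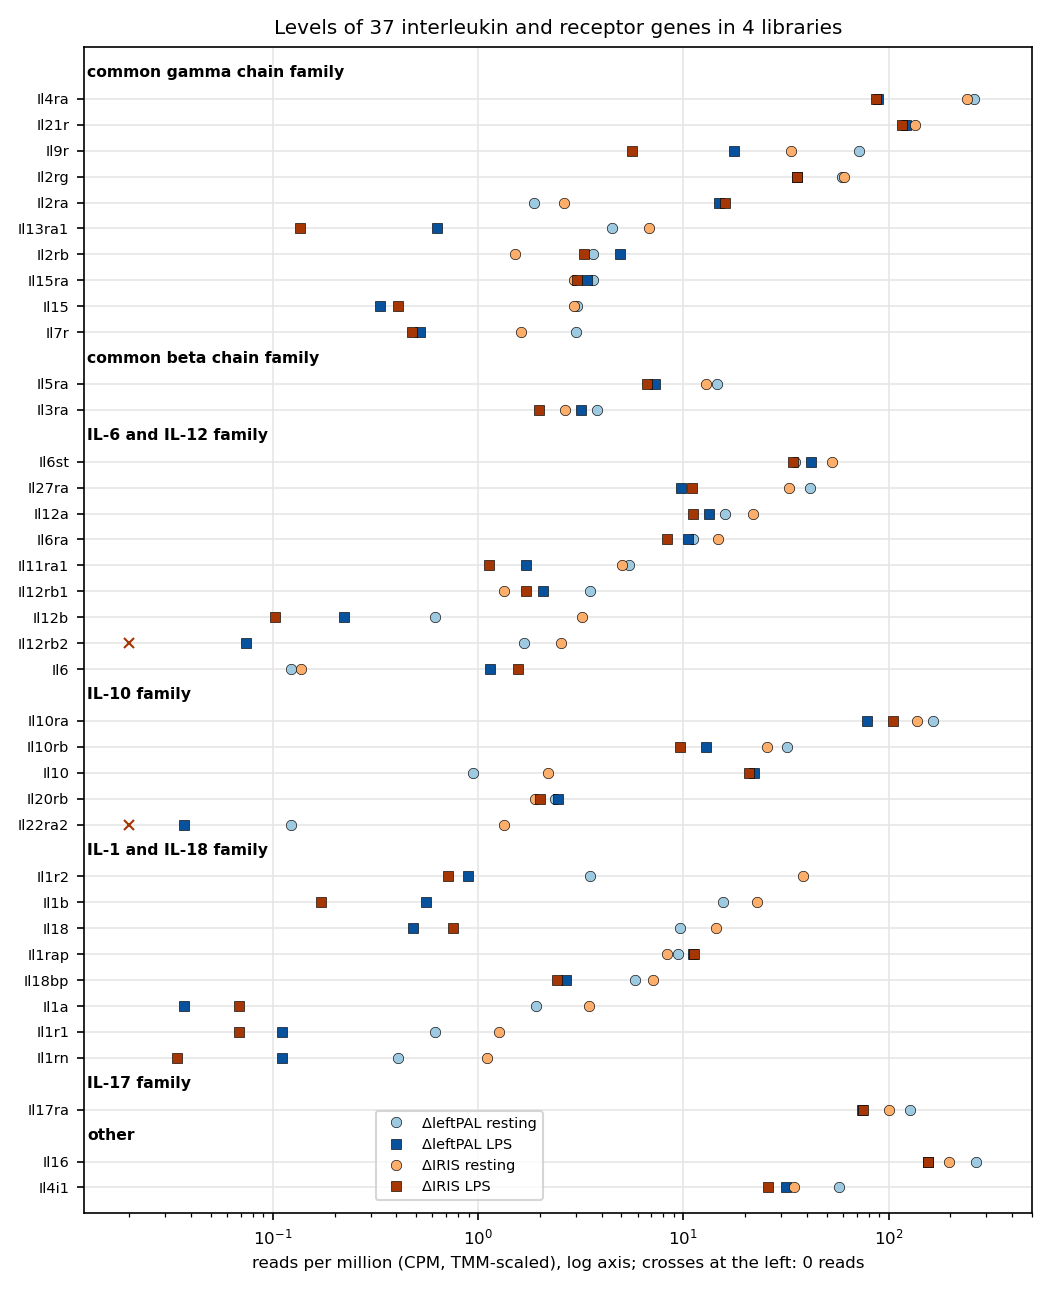
Level in CPM (x axis, log scale) of the 37 interleukin and receptor genes with a mean of at least 50 reads or at least 30 reads in some library (y axis, grouped by family and ordered by their highest level) in each of the 4 libraries; circles are resting and squares LPS libraries, and crosses at the left edge stand for 0 reads. Il10, Il2ra and Il6 are the genes whose LPS squares lie far to the right of their resting circles, while Il1b, Il18, Il13ra1 and Il1a lie far to the left.

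Per transcript length, in TPM, the length-corrected abundance that kallisto scales to the same sum in every library, summed per gene, the common gamma chain Il2rg had the highest level of all members in each library, at 121, 60.8, 140 and 59.2 TPM. Il16, a cytokine made as a large precursor that attracts CD4-bearing cells, came next at 111, 54.9, 80.1 and 53 TPM. The IL-21 receptor Il21r had 63.5, 53.7, 68.4 and 49.9 TPM, and the IL-10 receptor chain Il10ra 63, 25.5, 51.1 and 33 TPM. The IL-4 receptor chain Il4ra stood at 66.4 and 60.7 TPM at rest and at 19.2 and 18.1 TPM after LPS. The order depends on how reads are assigned. From gene counts divided by exonic length, Il4ra led in resting ΔleftPAL cells and Il21r in the other 3 libraries, and Il2rg fell to rank 6 or 7. For Il2rg the kallisto counts were 2.12 times the gene counts, and 728 bases of its exons lie on the same strand as the overlapping gene Gm20489.

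After 48 h of culture with LPS most of the tested members were lower than in freshly isolated cells. Of the 28, 16 were lower and 2 higher with LPS (edgeR quasi-likelihood test with genotype as a term, adjusted p under 0.05), against 27.9% lower and 36.4% higher among all 11286 genes tested. The counts for members are 57.1% lower and 7.14% higher. Their median log2 ratio of LPS to resting was -0.78 in ΔleftPAL and -0.70 in ΔIRIS cells, against 0.12 and 0.13 over all tested genes. The 2 genes called higher were Il10 and Il2ra, and the 10 not called were Il15ra, Il12a, Il6ra, Il21r, Il12rb1, Il3ra, Il20rb, Il6st, Il2rb and Il1rap. In the count of changes of at least 2-fold in both genotypes, 10 members were lower and 2 higher, against 14.0% and 18.4% of all tested genes. The test has 1 residual degree of freedom, so the spread comes from differences between the genotypes' responses, moderated by edgeR over all tested genes, and the p-values rest on these 4 libraries alone. Of the 28, 5 had a mean under 50 reads in the LPS libraries (Il1b, Il18, Il1r2, Il13ra1 and Il11ra1) and 1, Il10, in the resting libraries. These genes entered the test only through the condition in which they were high. The counts, and the adjusted p-values of these genes below, are thus a description. Bulk RNA cannot tell apart fewer cells of a type from less RNA per cell. The plot of responses sets the genotypes side by side.

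**Figure D3:**
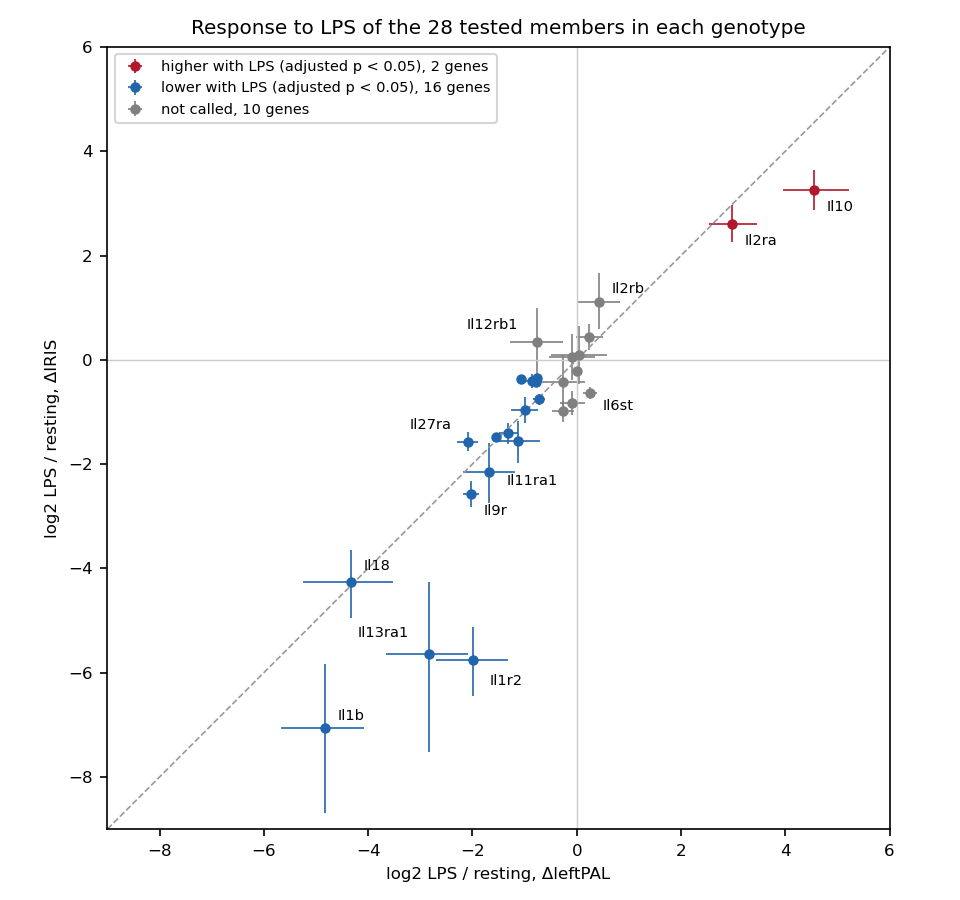
Log2 ratio of LPS to resting CPM in ΔleftPAL (x axis) and ΔIRIS cells (y axis) for the 28 tested members; bars are 95% counting intervals, the dashed line marks equal responses, and colours give the edgeR call (2 higher, 16 lower, 10 not called). Il10 and Il2ra lie at the upper right, Il18 lies on the line at -4.32 and -4.26, and Il1r2, Il13ra1 and Il1b lie below it.

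The largest fitted rise among the tested members was that of Il10, the anti-inflammatory cytokine made by regulatory and activated B cells (chromosome 1, 131019845 to 131024974, mm10). It had 23 reads in resting and 595 in LPS ΔleftPAL cells and 64 in resting and 614 in LPS ΔIRIS cells, or 0.942, 22.1, 2.20 and 20.9 CPM. Both LPS libraries were far above both resting libraries, and the LPS libraries lay close together. The rise was 23.5-fold in ΔleftPAL (log2 4.55, interval 3.95 to 5.22) and 9.52-fold in ΔIRIS cells (log2 3.25, interval 2.88 to 3.65). The common log2 difference was 3.81 with an adjusted p of 0.000592 in edgeR. After LPS Il10 stood at 21.6 and 19.5 TPM and Il4ra at 19.2 and 18.1 TPM, an order that turned round with gene counts per exonic length (18.1 and 19.1 against 18.7 and 20.3).

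Il2ra encodes CD25, the alpha chain that gives the IL-2 receptor its high affinity (chromosome 2, 11642792 to 11693191). Its reads were 46, 402, 76 and 467, or 1.88, 14.9, 2.61 and 15.9 CPM. The resting and LPS libraries did not overlap. The rise was 7.92-fold in ΔleftPAL and 6.09-fold in ΔIRIS cells, with a common log2 difference of 2.79 (adjusted p 0.000469, edgeR). Kallisto assigned more resting reads to Il2ra, with 170, 483, 232 and 549 estimated counts, and on that scale the log2 ratios were 1.48 and 1.39. The neighbouring Il15ra, the IL-15 binding chain, lies at 11705287 to 11733986 on the same chromosome and had 89, 92, 85 and 89 reads. Its log2 difference of -0.02 had an adjusted p of 0.953 in edgeR. Of the other chains of the IL-2 receptor, Il2rb, shared with the IL-15 receptor, had 89, 132, 44 and 96 reads. It was 1.34-fold (log2 interval 0.03 to 0.83) and 2.16-fold (log2 interval 0.58 to 1.66) higher after LPS, with both intervals above 0 as far as counting error goes, but the common difference was not called (log2 0.75, adjusted p 0.0802, edgeR). Il2rg was lower, with 1449, 970, 1760 and 1050 reads (log2 -0.74, adjusted p 0.00371).

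Il6, a cytokine that acts on plasma cells and T cells, was too low for the test, with 3, 31, 4 and 46 reads. Both LPS libraries were above both resting libraries, 9.37-fold (log2 3.23, interval 1.55 to 5.58) in ΔleftPAL and 11.4-fold (log2 3.51, interval 2.06 to 5.45) in ΔIRIS cells. Il6 reached 30 reads only in the LPS libraries, so its rise follows in part from how genes were named and is a description. With 0.5 CPM added the log2 ratios were 1.41 and 1.70. The 250 bases upstream of the RefSeq start of Il2ra and Il6 are printed because, of the named members at least 2-fold higher after LPS in both genotypes, these have an entry in the promoter table used here. Both are read 5' to 3' on the plus strand of GRCm38.p6, at chr2:11642542-11642791 and chr5:30012864-30013113. Capitals in Il6 mark a match to GGGA, any 2 bases, then TTCC, a pattern of NF-kB binding sites, 44 bases before the start. The RefSeq start used for Il6 lies upstream of the gene's span in the gene counts, which begins at 30013161, so its window does not end beside that span. Il6 was chosen for printing after its match was seen.
Il2ra: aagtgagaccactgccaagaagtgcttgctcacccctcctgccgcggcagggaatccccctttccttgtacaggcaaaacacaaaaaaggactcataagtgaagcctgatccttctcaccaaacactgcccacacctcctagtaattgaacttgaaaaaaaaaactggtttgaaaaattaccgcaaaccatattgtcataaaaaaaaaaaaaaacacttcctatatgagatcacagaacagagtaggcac
Il6: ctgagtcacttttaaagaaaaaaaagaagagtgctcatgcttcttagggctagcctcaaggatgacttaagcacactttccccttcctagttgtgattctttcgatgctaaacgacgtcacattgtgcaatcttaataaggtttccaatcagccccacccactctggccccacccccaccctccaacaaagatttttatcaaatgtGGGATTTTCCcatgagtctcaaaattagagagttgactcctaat
None of the 4 patterns searched was found in these bases of Il2ra, which says only that those letters are not in this window.

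Among the receptor chains that pair with the common gamma chain, the most highly expressed were lower after LPS, with one exception. Il4ra, through which B cells read IL-4 (chromosome 7, 125552282 to 125579472), had 6341, 2392, 7038 and 2538 reads, or 260, 88.8, 242 and 86.6 CPM. It was 2.92-fold lower in ΔleftPAL and 2.80-fold lower in ΔIRIS cells, with a common log2 difference of -1.52 (adjusted p 0.000441, edgeR). Il21r lies next to it on chromosome 7 (125603429 to 125633570) and was the exception, with 2936, 3268, 3897 and 3396 reads. Its level ranged only from 116 to 134 CPM, and the log2 difference of -0.10 was not called (adjusted p 0.542). Il9r, the IL-9 receptor chain (chromosome 11, 32187541 to 32200279), had 1743, 473, 972 and 165 reads. It was 4.06-fold lower after LPS in ΔleftPAL and 5.94-fold lower in ΔIRIS cells (common log2 -2.28, adjusted p 0.000421), and in each condition the ΔIRIS library was the lower one. Its cytokine Il9 had at most 3 reads in every library.

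Il13ra1, the chain that joins Il4ra to bind IL-13 (chromosome X, 36112110 to 36171259), fell from 110 to 17 reads in ΔleftPAL and from 197 to 4 in ΔIRIS cells. The common log2 difference was -3.92 (adjusted p 0.0039, edgeR). The values after LPS rest on few reads, with log2 ratios of -2.84 (interval -3.67 to -2.09) and -5.63 (interval -7.52 to -4.26), the latter -3.52 with 0.5 CPM added. Il7r, the IL-7 receptor of early lymphocytes and T cells, had 73, 14, 47 and 14 reads, which was too low for the test. Il15, a cytokine presented to T and NK cells by other cells, had 74, 9, 85 and 12 reads and was 9.07-fold and 7.14-fold lower after LPS (log2 -3.18 and -2.84, or -2.08 and -1.91 with 0.5 CPM added). The monocyte, T cell and NK cell marker sums were lower in the same libraries, and their part in these differences was not tested.

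Of the chains that use the common beta chain, Il5ra, the IL-5 receptor of B-1 cells and eosinophils, had 357, 197, 376 and 195 reads. It was 2.00-fold lower in ΔleftPAL and 1.94-fold lower in ΔIRIS cells (log2 -0.98, adjusted p 0.00662, edgeR). Il3ra had 93, 85, 77 and 58 reads and was not called (log2 -0.34, adjusted p 0.315). Neither Il3 nor Il5 had more than 3 reads in any library.

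The chains of the IL-10 receptor fell while their ligand rose. Il10ra, the ligand-binding chain (chromosome 9, 45253837 to 45269149), had 4018, 2115, 3975 and 3088 reads, or 165, 78.5, 137 and 105 CPM. It was 2.10-fold lower in ΔleftPAL but only 1.30-fold lower in ΔIRIS cells, and the common log2 difference of -0.72 had an adjusted p of 0.0226 in edgeR. Il10rb, the chain shared with the receptors of IL-22 and the lambda interferons, had 781, 347, 742 and 283 reads. It was 2.48-fold and 2.64-fold lower (log2 -1.36, adjusted p 0.000923), with kallisto counts 1.66 times the gene counts and 569 exonic bases shared on the same strand with Gm21970. Il20rb, a chain of the IL-20 receptors, had 58, 66, 55 and 59 reads, and its partner Il20ra at most 3. The log2 difference of Il20rb was 0.07 with an adjusted p of 0.85 in edgeR, and its sign depended on the scaling.

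Chains of the IL-6 and IL-12 family moved unequally. Il27ra, which binds IL-27 (chromosome 8, 84030287 to 84042575), had 1013, 263, 952 and 323 reads and was 4.25-fold and 2.97-fold lower after LPS (log2 -1.83, adjusted p 0.000722, edgeR). Il11ra1, the IL-11 receptor chain, had 133, 46, 146 and 33 reads and was 3.19-fold and 4.46-fold lower (log2 -1.91, adjusted p 0.00331). Il11ra2, a near-identical copy with which reads could be shared, had at most 3 reads, and kallisto gave Il11ra1 133, 45, 146 and 29 estimated counts. Il6st, the gp130 chain shared by the IL-6 family (chromosome 13, 112464070 to 112510086), had 856, 1123, 1546 and 1005 reads. It was 1.19-fold higher after LPS in ΔleftPAL and 1.55-fold lower in ΔIRIS cells, and the common difference was not called (log2 -0.19, adjusted p 0.49). Il6ra, the IL-6 binding chain, had 272, 283, 430 and 245 reads and was not called (log2 -0.46, adjusted p 0.15).

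Il12a, the p35 chain that IL-12 and IL-35 share (chromosome 3, 68690644 to 68698547), had 389, 357, 637 and 324 reads. The log2 difference of -0.63 missed the threshold (adjusted p 0.0531, edgeR), and it passed under 6 alternative settings (adjusted p 0.0275 to 0.0491). Its partner Il12b, the p40 chain made by dendritic cells and macrophages, had only 15, 6, 93 and 3 reads. The partner of p35 in IL-35, Ebi3, was higher after LPS (log2 0.95, edgeR adjusted p under 0.05), with 134, 308, 139 and 252 reads. The receptor chain Il12rb1 had 86, 56, 39 and 50 reads and was not called (log2 -0.24, adjusted p 0.61). Il12rb2 had 41, 2, 74 and 0 reads, which is 22.6-fold lower in ΔleftPAL (interval of the log2 ratio -7.59 to -2.55). In ΔIRIS cells it was 24.9-fold lower (log2 -4.64) with the LPS library set to the floor of 3 reads, while counting error allows a log2 ratio up to -4.30. With 0.5 CPM added these log2 ratios were -1.92 and -2.61. Kallisto gave Il12rb2 148, 39, 191 and 67 estimated counts, with smaller log2 ratios of -1.95 and -1.36, and 1519 of its exonic bases overlap Serbp1 on the opposite strand.

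Among the tested members, the largest differences after LPS fitted by edgeR belonged to the IL-1 and IL-18 family, whose members are known mainly from myeloid cells. Il1b, the secreted inflammatory cytokine (chromosome 2, 129364570 to 129371139), had 384, 15, 666 and 5 reads, or 15.7, 0.557, 22.9 and 0.171 CPM. It was 28.2-fold lower after LPS in ΔleftPAL (log2 -4.82, interval -5.67 to -4.08) and 134-fold lower in ΔIRIS cells (log2 -7.07, interval -8.70 to -5.84). With 0.5 CPM added the log2 ratios were -3.94 and -5.13. The common log2 difference was -5.73 with an adjusted p of 0.000517 in edgeR. Il18, a cytokine that induces interferon gamma, had 236, 13, 419 and 22 reads, with log2 ratios of -4.32 and -4.26 in ΔleftPAL and ΔIRIS cells (common log2 -4.28, adjusted p 0.000268), or -3.37 and -3.58 with 0.5 CPM added. Il1a, the cell-associated relative of Il1b, had 47, 1, 101 and 2 reads. Its ratios of 51.8-fold and 50.9-fold lower rest on 1 and 2 reads after LPS, with log2 intervals of -11.03 to -3.15 and -8.74 to -3.78, and with 0.5 CPM added the log2 ratios were -2.17 and -2.81.

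Both tested inhibitors of this family, Il1r2 and Il18bp, were called lower. Il1r2, the decoy receptor that binds IL-1 without signalling (chromosome 1, 40084768 to 40125219), had 86, 24, 1119 and 21 reads. The LPS libraries were near each other at 0.891 and 0.716 CPM, while resting ΔIRIS cells, at 38.5 CPM, stood far above resting ΔleftPAL cells at 3.52 CPM. Il1r2 was thus 3.95-fold lower after LPS in ΔleftPAL and 53.7-fold lower in ΔIRIS cells (log2 -5.75, or -5.00 with 0.5 CPM added, common log2 -4.07, adjusted p 0.0109, edgeR). Il18bp, the secreted inhibitor of IL-18, had 142, 72, 208 and 71 reads (log2 -1.34, adjusted p 0.0084). The signalling receptor Il1r1 had 15, 3, 37 and 2 reads and the receptor antagonist Il1rn 10, 3, 32 and 1, both too low for the test. The accessory chain Il1rap, the one tested receptor chain of the family, had 230, 300, 242 and 331 reads, with a log2 difference of 0.34 that was not called (adjusted p 0.173).

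In the same libraries the monocyte or macrophage marker sum was 0.0238 of its resting level after LPS in ΔleftPAL and 0.0253 in ΔIRIS cells, with Csf1r at 4127, 8, 6532 and 5 reads and Lyz2 at 2374, 35, 4322 and 14. Of the 9 markers 8 were called lower by edgeR, beside 27.9% of all tested genes, and Itgam had 321, 140, 304 and 450 reads. The part of these cells in the lower values of Il1b, Il18, Il1a, Il1r2, Il1r1, Il1rn and Il13ra1 was not tested. The bases upstream of the 3 members of the family with the largest called differences are printed. They come from RefSeq on GRCm38.p6, at chr2:129371140-129371389 on the minus strand for Il1b, chr1:40085843-40086092 on the plus strand for Il1r2 and chr9:50554450-50554699 on the plus strand for Il18. Capitals mark a match to TTCNNNGAA in Il1r2, 111 bases before the start, and to TTC, any 4 bases, then GAA in Il18, 46 bases before the start, both patterns of STAT binding sites. The RefSeq start used for Il18 lies upstream of the gene's span given here (chromosome 9, 50575273 to 50581837), and the window of Il1r2 lies inside that gene's span, which begins at 40084768, so neither window ends at the first base of that span.
Il1b: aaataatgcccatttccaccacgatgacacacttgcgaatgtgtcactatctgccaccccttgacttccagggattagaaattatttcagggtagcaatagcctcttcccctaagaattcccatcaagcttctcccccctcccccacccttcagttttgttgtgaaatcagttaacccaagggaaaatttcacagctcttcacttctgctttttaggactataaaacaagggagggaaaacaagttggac
Il1r2: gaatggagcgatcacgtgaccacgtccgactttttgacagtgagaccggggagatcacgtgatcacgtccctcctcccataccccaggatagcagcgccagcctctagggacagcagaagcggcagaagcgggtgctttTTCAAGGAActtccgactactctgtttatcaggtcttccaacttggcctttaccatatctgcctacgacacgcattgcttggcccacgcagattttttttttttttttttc
Il18: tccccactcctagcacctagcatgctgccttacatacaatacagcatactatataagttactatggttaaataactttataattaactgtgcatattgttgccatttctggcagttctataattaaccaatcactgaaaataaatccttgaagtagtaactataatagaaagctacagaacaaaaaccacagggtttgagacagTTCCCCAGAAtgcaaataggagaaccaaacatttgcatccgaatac

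Of the members outside these families, Il17ra, the common IL-17 receptor chain (chromosome 6, 120463197 to 120483727), was lower after LPS with 3114, 1996, 2945 and 2197 reads (log2 -0.61, adjusted p 0.0145, edgeR). The other IL-17 receptor chains had 7 reads at most. Il16 (chromosome 7, 83642848 to 83745726) had 6510, 4216, 5761 and 4541 reads and was 1.70-fold and 1.28-fold lower (log2 -0.56, adjusted p 0.0214), a call that was lost with kallisto counts (log2 -0.40, adjusted p 0.0554). Il4i1, an amino acid oxidase induced by IL-4 in B cells, had 1399, 851, 1003 and 761 reads and was 1.81-fold and 1.33-fold lower (log2 -0.64, adjusted p 0.0171). That call was lost without the genotype term (adjusted p 0.0649), although the log2 difference there was -0.67. Il4i1 shares 114 exonic bases with Nup62 on its own strand and 3423 with Tbc1d17 on the opposite strand. These 3 genes changed by less than 2-fold in each genotype, and each changed more in ΔleftPAL than in ΔIRIS cells.

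Among the tested members, the resting libraries of the genotypes differed most in Il1r2. Against resting ΔleftPAL cells, resting ΔIRIS cells had 10.9-fold more Il1r2 (log2 3.45, interval 3.13 to 3.78). With kallisto counts of 143 and 1200 the log2 ratio was 2.85. The monocyte or macrophage marker sum was 793 against 598 CPM in these libraries, with Csf1r at 6532 against 4127 and Lyz2 at 4322 against 2374 reads. Of the same markers, Itgam (304 against 321 reads) and Fcgr1 (173 against 190) were lower in ΔIRIS cells. Cd14 had an interval that holds equality, and the rest were higher. Nlrp3, which is not on that marker list, had 708 against 198 reads. The part of these cells in the Il1r2 difference was not tested. The excess was uneven over the annotated transcripts. The estimated counts were 680 against 72.5 for the 1419 nt, 398 against 4.52 for the 1054 nt and 122 against 66 for the 366 nt transcript. The 1419 nt transcript held 56.7% of the kallisto counts in resting ΔIRIS and 50.7% in resting ΔleftPAL cells, the 1054 nt transcript 33.2% and 3.16%, and the 366 nt transcript 10.2% and 46.2%. With 1 library per group these differences have no replicate check and were not tested. At least 2-fold differences were found in 2 members higher in ΔIRIS, Il1r2 and Il10, and in 3 lower, Il12rb1, Il9r and Il2rb, against 2.42% higher and 1.37% lower among all tested genes. Il10 was 2.34-fold higher at rest in ΔIRIS cells (log2 1.23, interval 0.52 to 1.98, 23 against 64 reads).

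Il12rb1 was 2.62-fold lower in resting ΔIRIS cells (log2 -1.39, interval -1.98 to -0.83), Il2rb 2.41-fold lower (log2 -1.27, interval -1.82 to -0.73) and Il9r 2.13-fold lower (log2 -1.09, interval -1.21 to -0.98). All 3 intervals exclude equality as far as counting error goes. NK cell markers summed to 7.74 CPM in resting ΔleftPAL and 4.57 CPM in resting ΔIRIS cells, neutrophil markers to 10.3 and 2.30 CPM and T cell markers to 54.2 and 45.5 CPM. The T cell markers were split. Cd4 (273 against 496 reads) and Cd8a (84 against 202) were higher in ΔIRIS. Cd3e (17 against 5), Cd3d (47 against 18), Cd3g (50 against 11) and Cd8b1 (24 against 5) were lower. Lck (752 against 537) and Lat (77 against 49) were lower as well. The part of these cells in the differences was not tested.

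Some genes too low for the test were also higher in resting ΔIRIS cells. Il12b, Il22ra2, Il1rn and Il1r1 reached the read minimum for naming only in the resting ΔIRIS library. Their excess there follows in part from how genes were named and is a description. Il12b had 93 against 15 reads (log2 2.38, interval 1.59 to 3.28). Il22ra2, a secreted receptor that binds and blocks IL-22, had 39 against 3 reads (log2 3.45, interval 1.80 to 5.79). After LPS in ΔIRIS cells it was 13.1-fold lower (log2 -3.71), taking the floor of 3 reads for 0, while counting error allows a log2 ratio up to -3.35. With 0.5 CPM added its log2 ratios were 1.56 between the resting libraries and -1.88 with LPS in ΔIRIS cells. Il1rn had 32 against 10 reads and Il1r1 37 against 15, with log2 ratios of 1.43 and 1.05. Il7r, also too low for the test, was lower in resting ΔIRIS cells, with 47 against 73 reads (log2 -0.89, interval -1.45 to -0.34). In these libraries the dendritic cell markers Xcr1 and Clec9a had 236 and 211 reads in ΔIRIS against 68 and 82 in ΔleftPAL cells, Flt3 had 760 against 435, Zbtb46 261 against 201 and Ccr9 42 against 37, while Siglech had 76 against 95. The sum of the 6 was 54.6 against 37.6 CPM, and their part was not tested.

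**Figure D4:**
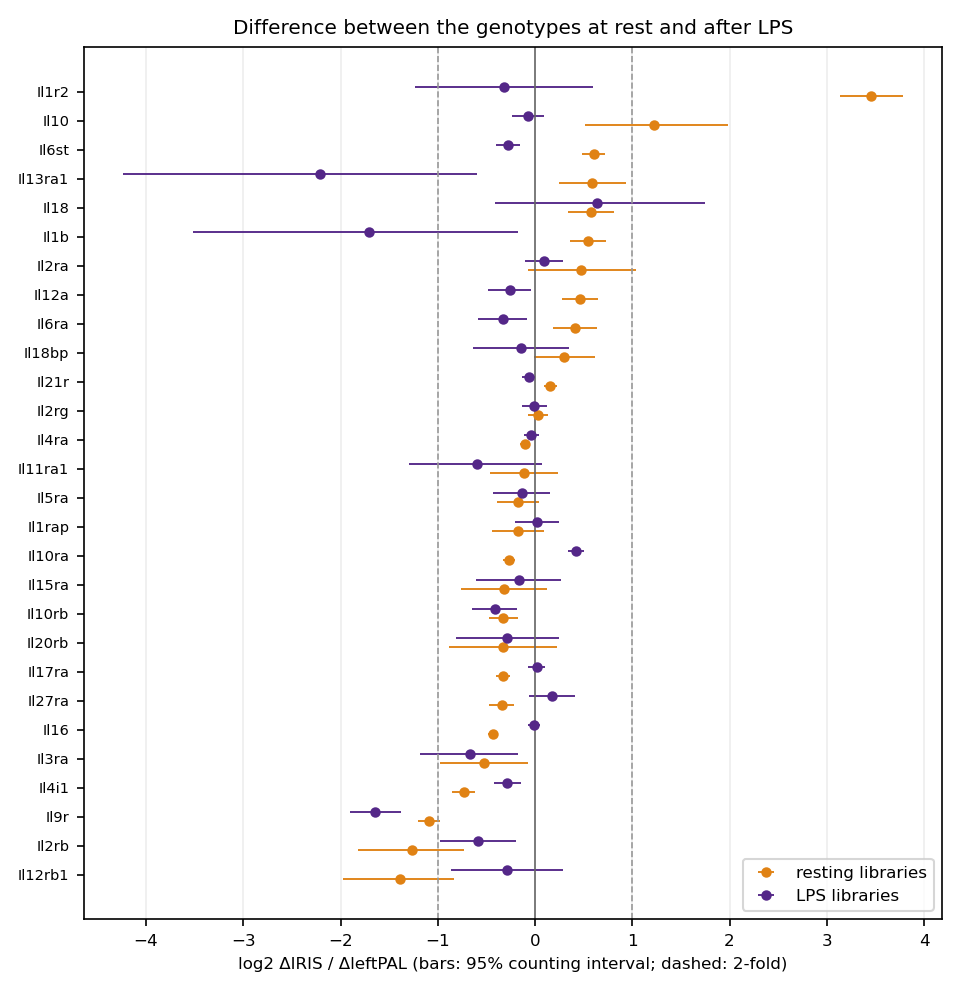
Log2 ratio of ΔIRIS to ΔleftPAL CPM (x axis) for the 28 tested members (y axis, ordered by the resting ratio) in the resting libraries (orange) and the LPS libraries (purple); bars are 95% counting intervals and dashed lines mark 2-fold. Il1r2 lies at 3.45 at rest and at -0.31 after LPS, and Il9r lies below -1 in both conditions.

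The plot of genotype differences also gives the LPS libraries. No tested member was at least 2-fold higher in ΔIRIS and 3 were lower, Il1b, Il13ra1 and Il9r, against 0.859% higher and 2.23% lower among all tested genes. The values of Il1b (15 against 5 reads, log2 -1.71, interval -3.52 to -0.17) and Il13ra1 (17 against 4 reads, log2 -2.21, interval -4.24 to -0.59) rest on few reads. Il9r had 473 against 165 reads and was 3.12-fold lower in ΔIRIS cells (log2 -1.64, interval -1.91 to -1.38). It was the only tested member at least 2-fold different in the same direction in both conditions. In its kallisto counts the 4482 nt transcript held 64.8% to 70.7% in the 4 libraries. Il10ra was 1.34-fold higher in ΔIRIS cells after LPS (log2 0.42, interval 0.34 to 0.50) and slightly lower at rest (log2 -0.27, interval -0.33 to -0.20). Il10 (log2 -0.08, interval -0.24 to 0.09) and Il4ra (log2 -0.04, interval -0.12 to 0.04) had intervals that hold equality.

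The signalling genes around these receptors changed in both directions. Of 53 genes of a pathway list, 45 were tested, of which 5 were higher and 21 lower with LPS by edgeR, beside 36.4% higher and 27.9% lower among all tested genes, shares that also serve as the background of its sub-lists. Among the 11 JAK and STAT genes, 7 were lower and 1 higher. Stat6, which carries the IL-4 signal, had 3596, 2044, 4319 and 2249 reads and was lower together with its receptor Il4ra (log2 -0.95, adjusted p 0.00171). Stat3, used by the IL-10, IL-6 and IL-21 receptors, was the one that rose, with 2736, 4328, 2999 and 4187 reads (log2 0.49, adjusted p 0.017). Jak2 was lower with 2673, 1244, 4688 and 1110 reads and Jak1 with 7558, 5471, 10392 and 5318.

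Of the 10 tested feedback inhibitors 3 were lower (Socs5, Pias1 and Ptpn6) and 0 higher by edgeR. Among the 10 genes listed for signalling by IL-1 and Toll-like receptors, Myd88 and Map3k7 were higher and Irak2, Irak4, Tab2 and the inhibitory receptor Sigirr lower. Of the 4 genes that process IL-1, the adaptor Pycard rose with 516, 1128, 468 and 1647 reads (adjusted p 0.00351), while the sensor Nlrp3 fell from 198 and 708 reads to 1 read in each LPS library. Casp1, the protease that matures IL-1 and IL-18, had 874, 724, 951 and 1033 reads and was not called. Related cytokines under other names included Ltb with 5512, 802, 4098 and 715 reads and Lta with 309, 45, 237 and 58, both lower, and Tnf with 272, 295, 262 and 390 reads, not called. Of the shared chains outside the name rule, Crlf2 and Lifr were lower, and Csf2rb, the common beta chain, had 566, 747, 801 and 756 reads and was not called.

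Promoter sequence of 250 bases before the start was held for 66 of the 83 members, and for 13 of the 18 called by edgeR. No entry was held for Il10, Il17ra, Il27ra, Il10ra and Il10rb. Each pattern was searched on both strands. The shares below are per window, whereas a member is listed if any of its windows held a match. Some members have several windows, so the member lists and the shares are not counted alike. GGGA, any 2 bases, then TTCC was found in 1.21% of 32851 promoter windows of this length and, among the members, in Il16, Il22ra1 and Il6. TTCNNNGAA was found in 7.02% of windows and, among the members, in Il1r2, Il12rb2, Il18r1, Il19, Il1bos, Il1f5, Il1f9, Il31ra and Il7r. TTC, any 4 bases, then GAA was found in 5.85% of windows and, among the members, in Il18, Il12a, Il18r1, Il18rap, Il1f9, Il1rn, Il20, Il20ra, Il33, Il4 and Il9. Of the 12 members called lower that have an entry, each of these patterns was found in 1. GAAA, any 2 bases, then GAAA, a pattern of interferon response elements, was found in 2.98% of windows, and in Il19 and Il4 among the members. A match is a description of the sequence and not a site.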

How the data were processed

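RNA of CD43-depleted splenocytes was sequenced after ribosomal RNA removal with a stranded kit (14 PCR cycles, 150-base reads). Per the labels, the authors mapped reads with STAR (version 2.4.0a) to mm10 (GRCm38) and deposited raw counts per gene name from featureCounts (Subread 1.4.6-p1), run on primary alignments with strand option 1, multi-mapped fragments included. That option is not the one this kit usually calls for, but 33 of the 37 members named had gene counts within 1.5 times their kallisto counts when summed over the libraries, and the values were used as deposited. Single libraries can differ more, as for Il2ra at rest (46 against 170 and 76 against 232). The authors also deposited estimated counts and TPM values of 88198 transcripts from kallisto 0.42.3, which were summed per gene here. The index behind the TPM is not given in the sources used here. The 1 row without a gene name (0.00876% to 0.0264% of counts) was left out. Counts were scaled by TMM (factors 0.970 to 1.03), and CPM uses these sizes. LPS was compared with rest by edgeR 4.0.16 (R 4.3.3), quasi-likelihood, with genotype as a term, over the 11286 genes that averaged 50 counts or more, with Benjamini-Hochberg adjustment. The replicates of this test are the genotypes, each 1 library per condition, so genotype differences and ratios within a genotype were given without a test, as TMM-scaled log2 ratios with 95% exact binomial (Clopper-Pearson) intervals. A library at 0 was set to 3 counts and no ratio was given where both were at or under 3. The fit was tested on simulated data. Sequences came from RefSeq (GRCm38.p6), and the orientation was checked against GENCODE transcripts (no match for Il18 among those printed). The settings varied were the scaling (total counts, TMM leaving out immunoglobulin genes, size factors of DESeq2 1.42.0), the DESeq2 Wald test, other count minimums, kallisto counts, no genotype term and 0.5 CPM added. Genes named are those with a mean of at least 50 counts, or at least 30 in some library. Members and lists were chosen with earlier results of these data known. No per-sample column was left unused. One gene of the B cell marker list is not reported here and was left out of its sum.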

Additional observations from a re-analysis of the deposited data

Results flagged for a closer look

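For 4 tested members the log2 ratio of LPS to resting had opposite signs in the genotypes. With 1 library per group the difference was not tested. Il12rb1 went from -0.76 in ΔleftPAL to 0.35 in ΔIRIS cells, a difference of 1.11. Il6st went from 0.25 to -0.63, a difference of -0.88 between ratios of 856 to 1123 and 1546 to 1005 reads. Il21r (0.01 and -0.21, difference -0.22) and Il15ra (-0.09 and 0.05, difference 0.15) were near 0 in both.

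Of the members with at most 3 gene counts in every library, 2 reached 30 kallisto estimated counts in some library, and others such as Il11 (5, 9, 20 and 8) had fewer. Il24 had 102 estimated counts at rest and 8 after LPS in ΔleftPAL, and 88 and then 7 in ΔIRIS cells. Il1f9 had 35 and 31 in ΔleftPAL and 21 and 20 in ΔIRIS cells, in the same order.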

How the results depend on the processing

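With 1 library per group no library could be left out. The genotype term already sets each LPS library against the resting library of its genotype, and the fit without it called the same numbers, 16 lower and 2 higher. Over the members' edgeR results under the alternatives, 231 kept direction and side of the threshold, 6 passed it anew, 2 lost it and 4 turned sign. Of the ratios within and between genotypes 656 stayed within their counting interval and 54 left it, 30 of these with kallisto counts and 19 with 0.5 CPM added, which brings the ratios of low genes such as Il1a, Il1b and Il6 nearer to 0. Il10 and Il2ra were called higher at each of these settings, joined by Il6 with a minimum of 10 counts or none. Without a count minimum 27 of 64 members were called lower instead of 16 of 28. The added ones were Il12a and 10 genes under the minimum of 50, such as Il1a, Il15 and Il12rb2. The shares called lower were then below those of the main fit, 57.1% for members and 27.9% for all genes. Without a minimum, the share called lower was still higher among the 64 members than among all 22992 genes tested. At least 2-fold lower in both genotypes were 17 members with a minimum mean of 10 counts, 6 with 200 and 20 with none, against 10, and higher were 4 with none, against 2 (Il6 and Il33 were added). In resting cells, ΔIRIS was at least 2-fold higher in 6 members with a minimum of 10, 9 with none and 1 with 0.5 CPM added, against 2, and lower in 1 with a minimum of 200 and 5 with none, against 3. In LPS cells it was higher in 1 with a minimum of 10 and 4 with none, against 0, and lower in 1 with 0.5 CPM added, against 3. Fewer or more genes passed these minimums by construction, and the added CPM draws low genes together. At minimums of 10, 200 and none, 39, 19 and 64 members and 13863, 8957 and 22992 genes entered the test of LPS, against 28 and 11286. These 2-fold counts are given without the share over all genes at the same setting. They describe the members only and are not set against a background. The sign turned for Il15ra (0.0603) and Il21r (0.0406) with kallisto counts and for Il20rb with total counts (-0.0001) and the DESeq2 Wald test (-0.0738), where none was called. Il12a was called lower with total counts, DESeq2 size factors, a minimum of 200, no minimum, the Wald test and no genotype term (adjusted p 0.0275 to 0.0491). Il4i1 lost its call without the genotype term (log2 -0.67, adjusted p 0.0649) and Il16 with kallisto counts (log2 -0.40, adjusted p 0.0554), where the cause was not tested. The median log2 ratio of all tested genes with LPS was 0.12 and 0.13 with TMM and 0.03 and 0.09 with total counts. Genes under about 10 reads in a library have wide intervals, so their ratios are loosely known.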
